A study of Mus musculus with 11 samples.

Results

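Transcripts of 45 splicing factor genes were followed in cultures of 3T3-L1, a fibroblast line of the mouse that hormones can turn into fat cells and that the labels call preadipocytes. The genes were those whose platform symbol begins with Hnrn, Srsf, Sfrs, Sf3a, Sf3b or Snrp, each read by its brightest probe set (a set of short probes for 1 transcript). Of 47 genes with such a symbol, 45 had a mean normalised intensity above the 40th percentile of all values, out of 12428 genes that passed the same filter. They comprised 19 hnRNP genes, 9 SR genes, 9 SF3 genes and 8 snRNP protein genes, and Snrpn and Srsf12 lay below the filter with means of -0.142 and -0.693. The rule used symbols and the mean over all arrays, and no comparison between groups. The members were nevertheless chosen with earlier results of these data known, so shares of members called are descriptions.

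The cells were given trans-10,cis-12 conjugated linoleic acid (CLA, the treatment) or linoleic acid (LA, an isomer with 2 cis double bonds that are not conjugated, the control) and were collected after 4, 8 or 12 h. RNA was measured on 11 Affymetrix arrays of 1 colour, namely 2 CLA arrays at each time, 1 LA array at 4 h, and 2 LA arrays at 8 h and at 12 h. All groups were the same cell line with no genetic change stated, every group received a fatty acid, and the labels give no dose. Another LA array at 4 h, implied by the design text, was not analysed here, and the labels call the replicates biological without saying that each came from a culture of its own. A p-value here thus reflects the spread among these arrays only, part of which may be technical.

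Splicing removes introns from pre-mRNA in the spliceosome, whose core is built of small nuclear RNAs wrapped in snRNP proteins. The SF3a and SF3b complexes belong to the U2 snRNP and hold it on the branch point of the intron. SR proteins bind exons and mostly recruit the splicing machinery, while hnRNP proteins coat nascent RNA and often hold splice sites back, so the balance of both decides which exons are kept. Many genes of these families are known to hold exons whose inclusion marks their own mRNA for decay, and in mouse preadipocytes Srsf10 is known to guide the splicing of transcripts needed for fat cell formation.

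All 45 probe sets lay far above the arrays' background of 8.89, the 95th percentile of 27 unspiked bacterial controls. The dimmest was Hnrnph3, whose mean of 89.4 was followed by Sf3a1 at 341, and the brightest was Hnrnpab at 4240. Within the SR family the means lay between 417 for Srsf10 and 2587 for Srsf1, within SF3 between 341 for Sf3a1 and 1599 for Sf3b2, and within the snRNP proteins between 421 for Snrpa1 and 3545 for Snrpg. These levels place each probe set above background and do not rank the genes, since probe sets differ in how brightly they report.

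Replicate arrays correlated at r = 0.970 to 0.978 across genes. The 2 LA arrays of 12 h stood apart from the others: they were the dimmest as deposited, with medians of 11.6 and 10.6 against 12.8 to 20.1 elsewhere, and lay at 48.9 and 49.1 on the leading principal component (35.6% of the variance), with all others between -43.2 and 16.5. The ratio of 3' to 5' signal of the Gapdh control was 0.983 and 1.181 on these arrays and 0.884 to 1.077 on the rest, and that of actin was 1.546 and 1.586 against 1.309 to 1.747. The 2 CLA arrays of 8 h differed from each other, with deposited medians of 20.1 and 12.8 and places of -15.3 and 8.3 on the leading component. The spiked-in Cre control was brighter on the LA arrays of all times, at 6707 to 8102, than on the CLA arrays, at 5953 to 6244. Of 11 fibroblast markers with a probe set, 10 were above background on every array. Of 8 adipocyte markers with a probe set, Fabp4 (174 to 473), Pparg (12 to 51.6) and Lipe (21.3 to 45.2) were above background on every array and Lep, Cidec and Retn on none. The sum of all 8 was 562.7 to 580.6 in CLA and 462.2 in LA at 4 h. It was 332 to 361.5 in CLA and 355.7 to 358.4 in LA at 8 h, and 242.3 to 284.7 in CLA and 296.4 to 301.5 in LA at 12 h. The summed intensity of 9 macrophage markers was 1737 on the 4 h LA array and between 578.5 and 832.6 elsewhere. Most of the 1737 was Csf1r, at 1170, and 4 of the 9 were above background on every array, while Ptprc, Itgam and Tyrobp were at background on all. The part of these array features in the results was not tested, apart from the array median, which is taken up with the scaling.

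Between 8 and 12 h in the LA cultures, 24 of the 45 members passed the test, with hnRNP genes lower and most of the called SF3 genes higher at 12 h after quantile normalisation. At 12 h, 8 members were higher and 16 were lower than at 8 h in LA, where 11% and 11.4% of all genes (22.3% in either direction) passed the same test (limma, Benjamini-Hochberg adjusted p under 0.05). The hnRNP family had 0 higher and 11 lower of 19, with a median log2 difference of -0.36, and the SF3 family had 6 higher and 1 lower of 9, with a median of 0.40. On the intensities as deposited, the median of all genes was -0.19, and 32 of 12443 genes were higher and 1753 lower. On that scale hnRNP had 0 higher and 12 lower, and SF3 had 0 higher and 1 lower with a median of 0.10. With arrays scaled to 1 median, hnRNP had 0 higher and 3 lower, and SF3 had 3 higher and 0 lower. On that scale 532 of 12419 genes were higher and 1064 lower. After quantile normalisation 1 SR gene was higher and 3 were lower of 9 (median -0.05). Among snRNP protein genes 1 was higher and 1 was lower of 8 (median 0). The median of all genes was then 0.13. In the CLA cultures 0 members passed over the same interval, where 0.402% of all genes did. There 2 of 45 members and 1274 of all 12428 genes had an unadjusted p under 0.05 in limma. The CLA arrays of 8 h differed from each other, so the lack of calls does not show that members held steady in CLA. All samples were whole cultures, in which fewer cells expressing a gene and less RNA per cell cannot be told apart. The heat map of all members by array shows the LA change as a cold block of hnRNP genes and a warm block of SF3 genes under the 2 late LA arrays.

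**Figure D1:**
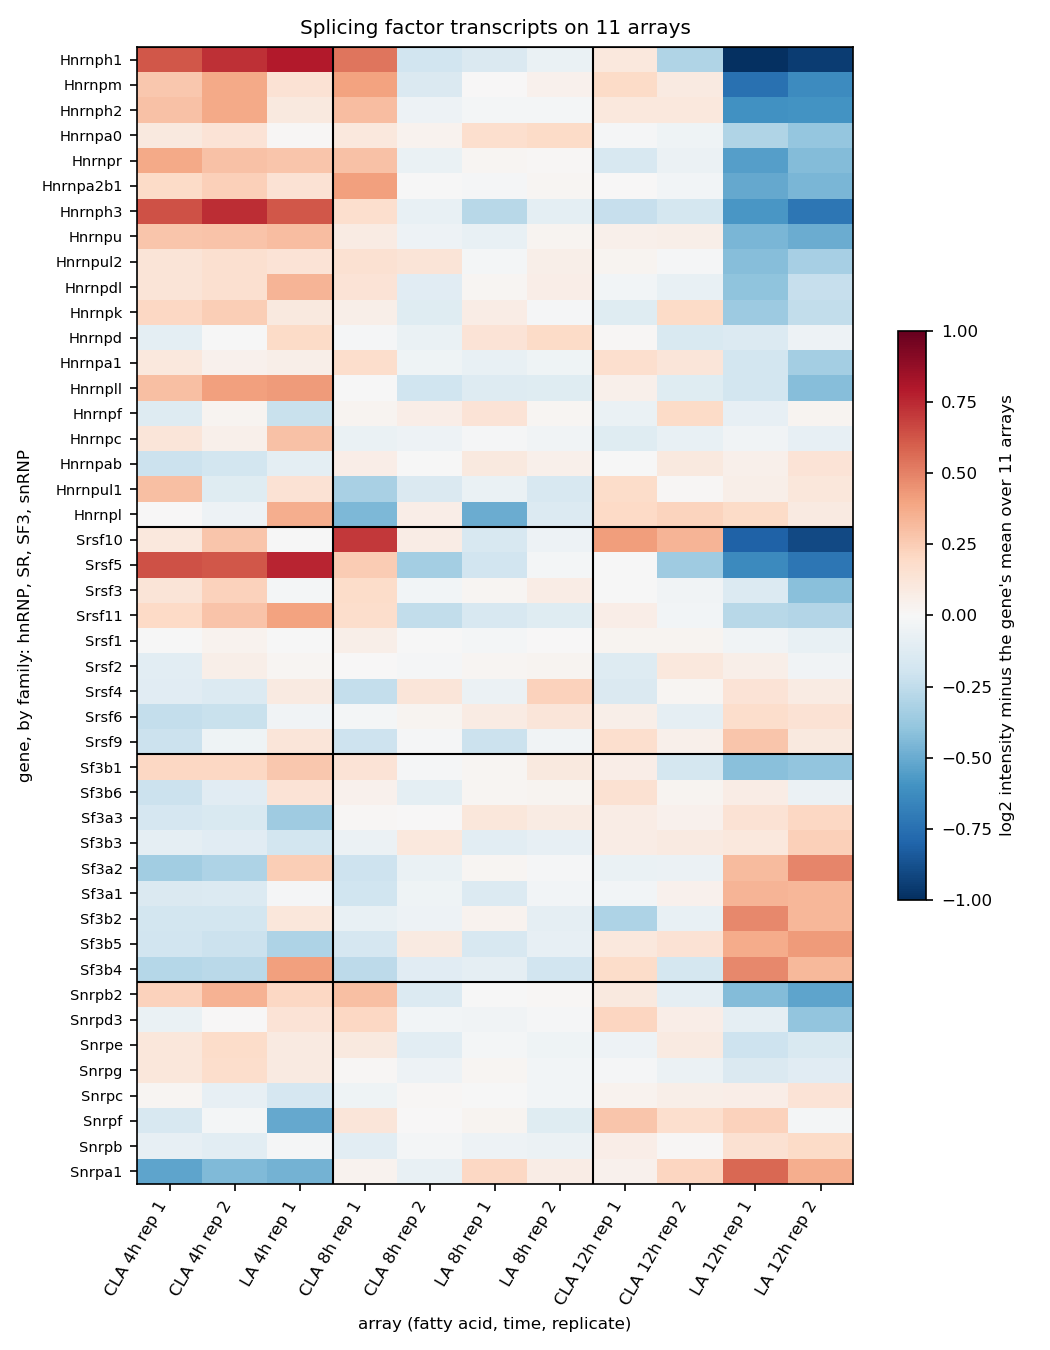
Heat map of the log2 normalised intensity of 45 splicing factor genes (rows, grouped as hnRNP, SR, SF3 and snRNP protein genes) on 11 arrays (columns, grouped by time, CLA left of LA), each value minus the gene's mean over all arrays. Both 12 h LA arrays were the lowest of 11 in 22 genes and the highest in 9, against 12.8% and 25.2% of all genes.

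Both 12 h LA arrays read lower than the other 9 arrays in 22 members, against 12.8% of all genes, and higher than the others in 9 members, against 25.2% of all genes. In the hnRNP family they were the lowest in 12 genes and the highest in 0, and in SF3 the lowest in 1 gene and the highest in 5. The SR family had 5 genes lowest and 1 highest, and the snRNP proteins 4 lowest and 3 highest. With the 2 arrays of each time apart, 14 members were higher and 24 lower at 12 h than at 8 h in LA, against 43.9% and 24.3% of all genes. The comparison of 12 h with 8 h in LA and that of CLA with LA at 12 h use the same 12 h LA arrays, so their values for a gene are given side by side and are not separate evidence.

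The 250 bases before the transcription start of Srsf10 and Hnrnpm, which fell in LA, and of Sf3a1 and Sf3a2, which rose, are shown because these members moved in opposite directions in the same cells. They are the 2 largest called changes each way among members with exactly 1 start in the promoter set used. Sf3b4 and Sf3b5 rose more but had no entry in that set, and Hnrnph1 and Sf3b2, which also moved more, had several. The bases are read 5′ to 3′ on the gene's strand from RefSeq (GRCm38.p6), and capitals mark matches on either strand to 8 motifs. Srsf10 covers chr4:135855821-135856070 (plus strand), Hnrnpm chr17:33685459-33685708 (minus strand), Sf3a1 chr11:4160104-4160353 (plus strand) and Sf3a2 chr10:80798485-80798734 (plus strand).
Srsf10: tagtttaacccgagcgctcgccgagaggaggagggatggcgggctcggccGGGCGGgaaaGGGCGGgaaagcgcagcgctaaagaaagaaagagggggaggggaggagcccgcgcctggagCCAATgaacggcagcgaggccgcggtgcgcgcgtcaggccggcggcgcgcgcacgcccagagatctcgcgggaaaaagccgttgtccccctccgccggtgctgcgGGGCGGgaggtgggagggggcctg
Hnrnpm: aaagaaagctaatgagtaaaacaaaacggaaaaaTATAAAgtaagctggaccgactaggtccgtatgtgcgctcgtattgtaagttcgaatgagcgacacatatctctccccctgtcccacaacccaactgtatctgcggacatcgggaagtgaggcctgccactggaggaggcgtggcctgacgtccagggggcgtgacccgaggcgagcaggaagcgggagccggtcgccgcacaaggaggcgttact
Sf3a1: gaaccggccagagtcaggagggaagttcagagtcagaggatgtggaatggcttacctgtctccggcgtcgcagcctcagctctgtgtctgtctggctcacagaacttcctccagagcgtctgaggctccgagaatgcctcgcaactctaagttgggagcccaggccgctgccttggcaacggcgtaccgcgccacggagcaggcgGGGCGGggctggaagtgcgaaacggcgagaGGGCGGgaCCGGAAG
Sf3a2: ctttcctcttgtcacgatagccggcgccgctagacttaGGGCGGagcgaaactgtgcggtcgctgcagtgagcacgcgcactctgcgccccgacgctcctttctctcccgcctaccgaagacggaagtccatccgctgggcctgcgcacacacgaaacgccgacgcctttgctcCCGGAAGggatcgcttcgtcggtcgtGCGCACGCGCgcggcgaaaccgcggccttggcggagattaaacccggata

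Both strands were searched, and a base may belong to more than 1 match. Of 40 members with a RefSeq promoter, 14 (35%) held the letters CCGGAAG, bound by the ETS family, against 7.05% of all 27018 promoters of the same length. The letters GGGCGG, known as the GC box, were found in 27 members (67.5%) and in 32.9% of all promoters. Of the 8 members that rose in LA 5 had such a promoter, of the 16 that fell 15 did, and 20 others had one and were not called. The ETS letters stood before 4 of these 5, 3 of these 15 and 7 of these 20. The GC box stood before 3 of 5, 11 of 15 and 13 of 20. The CCAAT letters were found in 47.5% of members and 34.5% of all promoters, and the NRF1 motif, in which 2 free bases part a pair of GCGC blocks, in 15% and 5.09%. The TATAAA letters were in 10% of members and 13% of all, the E-box (CACGTG) in 2.5% and 6.05%, the cAMP response element (TGACGTCA) in 2.5% and 1.62%, and the YY1 motif (AAGATGGCG) in 0 of 40 members and 0.607% of all. The members' promoters were also richer in G and C, with a median of 60.6% against 52% in all promoters. A match is a description of the letters, and motifs and promoters were chosen after the data were seen.

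Among hnRNP genes, which package nascent transcripts, the fall in LA was largest for Hnrnph1, whose protein binds runs of G. Hnrnph1 read 698 and 787 on the 12 h LA arrays against 1375 and 1447 on the 8 h LA arrays, a log2 difference of -0.93 ± 0.19 (SE, adjusted p = 0.00747). In CLA it read 1632 and 1234 at 12 h against 2199 and 1329 at 8 h. The LA times did not overlap, while the CLA times did, with a log2 difference of -0.27 ± 0.19 (95% interval -0.69 to 0.15).

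Hnrnpm, whose protein binds GU-rich RNA and can turn exon choice towards skipping, read 289 and 314 on the 12 h LA arrays and 489 and 502 on the 8 h LA arrays (-0.71 ± 0.15, adjusted p = 0.00793). The CLA arrays read 556 and 518 at 12 h, both within the span of the 8 h CLA arrays at 642 and 440. At 12 h CLA exceeded LA 1.78-fold (0.83 ± 0.15, adjusted p = 0.00476). Hnrnph2, a close relative of Hnrnph1, read 1056 and 1057 on the 12 h CLA arrays against 646 and 648 on the 12 h LA arrays. Replicates of these 2 groups differed far less than the groups did, while the 8 h CLA arrays of Hnrnph2 read 1216 and 947. Its CLA minus LA difference at 12 h was 0.71 ± 0.11 (adjusted p = 0.00189), and its 12 h minus 8 h difference in LA was -0.58 ± 0.11.

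Hnrnpu encodes scaffold attachment factor A, which ties RNA to chromatin. It read 2291 and 2308 in CLA at 12 h against 1617 and 1571 in LA at 12 h (0.53 ± 0.07, adjusted p = 0.000975), while at 8 h CLA read 2340 and 2136 and LA read 2103 and 2255. The groups were far apart at 12 h and overlapped at 8 h. Hnrnpa0, which binds AU-rich RNA, read 1586 and 1499 on the 12 h LA arrays against 2195 and 2227 on the 8 h LA arrays (-0.52 ± 0.06, adjusted p = 0.000511), and CLA exceeded LA by 0.31 ± 0.06 at 12 h.

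The other hnRNP genes that fell in LA were Hnrnpr (-0.51), Hnrnpa2b1 (-0.49), Hnrnpul2 (-0.40), Hnrnpdl (-0.36), Hnrnpk (-0.34) and Hnrnpd (-0.26, adjusted p = 0.048). Hnrnpa2b1 sorts RNA for transport and export, Hnrnpk binds runs of C, and Hnrnpd, also called AUF1, speeds the decay of AU-rich mRNAs. At 12 h CLA exceeded LA in 11 hnRNP genes and fell short in 0, where 9.46% and 9.33% of all genes passed in those directions, with a family median of 0.34. With arrays scaled to 1 median, 3 hnRNP genes were higher and 0 lower, where 949 and 363 of 12419 genes passed in those directions. Those 11 were Hnrnph1, Hnrnpm, Hnrnph2, Hnrnpu, Hnrnpa2b1, Hnrnpa1, Hnrnpul2, Hnrnpr, Hnrnpk, Hnrnpa0 and Hnrnpdl. Hnrnpa1, a general splicing silencer, passed at 12 h between the fatty acids (704 and 683 in CLA against 551 and 495 in LA, 0.41 ± 0.10). Over time in LA its brightest probe set did not pass (-0.21 ± 0.10, adjusted p = 0.154). All 3 of its probe sets were negative there, from -1.19 to -0.21, and 1 of them passed.

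Of the hnRNP genes that did not pass in LA, Hnrnph3, a relative of Hnrnph1 and the dimmest member, had a difference of -0.47 ± 0.16 (adjusted p = 0.0564), and at 12 h its CLA minus LA difference was 0.45 ± 0.16 (adjusted p = 0.0698). Hnrnpab and Hnrnpc had differences in LA of 0.02 (95% interval -0.11 to 0.14) and -0.04 (-0.16 to 0.09) between 12 and 8 h. Hnrnpl, which binds CA repeats, had a positive difference of 0.46 ± 0.16 in LA (adjusted p = 0.0604) and of 0.40 ± 0.16 in CLA (adjusted p = 0.411), with 8 h arrays that disagreed: 442 and 633 with CLA, and 426 and 549 with LA.

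**Figure D2:**
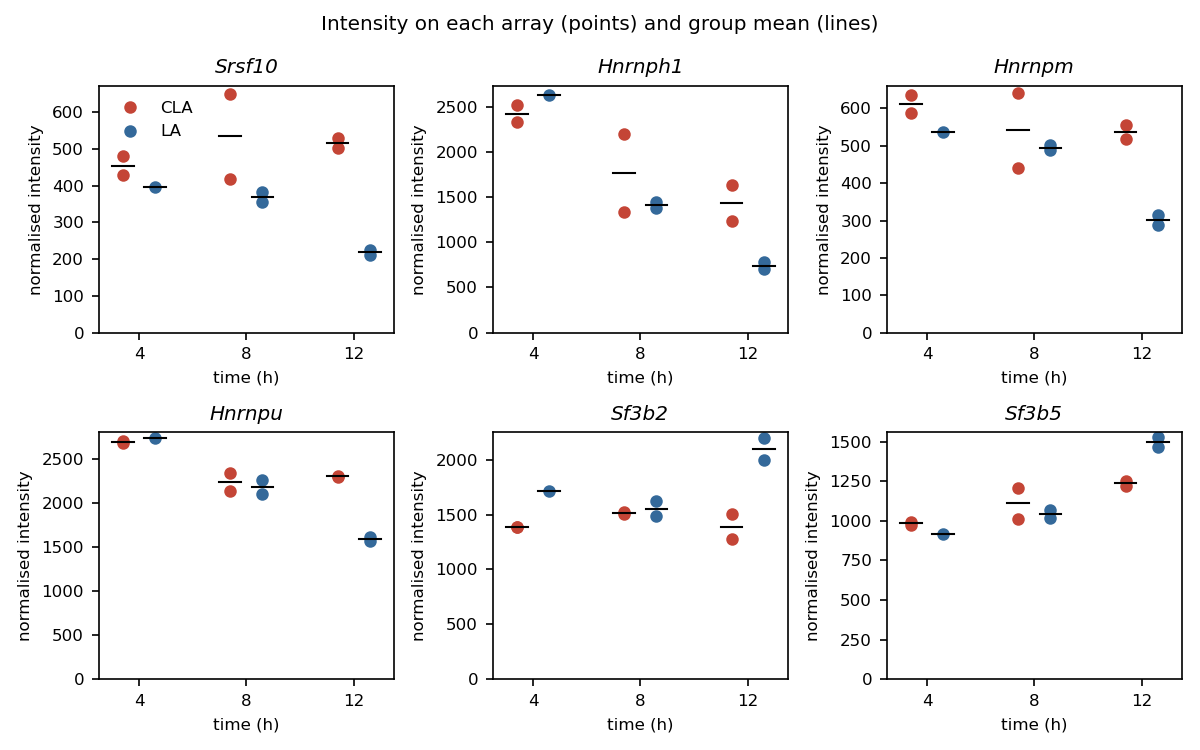
Normalised intensity (vertical axis, from 0) of Srsf10, Hnrnph1, Hnrnpm, Hnrnpu, Sf3b2 and Sf3b5 on each array (points) at 4, 8 and 12 h, with group means as lines, CLA left of LA at each time. At 12 h the LA arrays lay below the CLA arrays for Srsf10 and the hnRNP genes and above them for Sf3b2 and Sf3b5.

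Srsf10, an SR protein that can repress splicing when dephosphorylated, had the largest fatty acid difference of all 45 members at 12 h. It read 531 and 503 on the CLA arrays against 226 and 211 on the LA arrays, 2.35-fold higher in CLA (1.23 ± 0.17, adjusted p = 0.00132). In LA the 12 h arrays lay below those of 8 h, at 355 and 382 (-0.75 ± 0.17, adjusted p = 0.011). In CLA the 8 h arrays were spread, at 650 and 418, and the change to 12 h was -0.01 (95% interval -0.39 to 0.36).

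Srsf5, an SR protein linked to insulin action on exon choice, read 989 and 930 on the 12 h LA arrays against 1349 and 1516 on the 8 h LA arrays (-0.58 ± 0.16, adjusted p = 0.0294). Its 12 h CLA arrays, at 1538 and 1199, differed from LA by 0.50 ± 0.16 (adjusted p = 0.0544), which did not pass. Srsf3, the smallest SR protein and one that also aids mRNA export, fell in LA by 0.33 ± 0.10 (adjusted p = 0.0344), and Srsf9 rose by 0.31 ± 0.10 (adjusted p = 0.048). The remaining SR genes, Srsf1, Srsf2, Srsf4, Srsf6 and Srsf11, had LA differences between -0.14 and 0.05 on their brightest probe sets and did not pass.

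Of the 9 SF3 genes, whose proteins fix the U2 snRNP on the branch point, 6 rose in LA, 1 fell and 2 did not pass after quantile normalisation. Sf3b4, which contacts RNA just upstream of the branch point, read 952 and 850 at 12 h against 640 and 595 at 8 h (0.54 ± 0.12, adjusted p = 0.0103). Sf3b5, a small subunit of the same complex, read 1467 and 1529 against 1016 and 1072 (0.52 ± 0.09, adjusted p = 0.00296). For both genes the 12 h arrays were far above the 8 h arrays. The single 4 h LA array read 905 for Sf3b4, between its 12 h arrays, and 920 for Sf3b5, below its 8 h arrays.

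Sf3b2 rose by 0.43 ± 0.09 in LA (adjusted p = 0.00749), Sf3a1 by 0.42 ± 0.11, Sf3a2 by 0.40 ± 0.10 and Sf3b3 by 0.27 ± 0.08 (adjusted p = 0.0311). Sf3b2 anchors other SF3b subunits, Sf3a1 and Sf3a2 belong to SF3a, and Sf3b3 is a large scaffold subunit. Sf3b1, the subunit that clamps the branch point, was the exception: it read 1163 and 1179 in LA at 12 h against 1571 and 1664 at 8 h and fell by 0.46 ± 0.09 (adjusted p = 0.00493). Sf3b6, which lies next to the branch point adenosine, and Sf3a3 did not pass, with -0.01 and 0.08.

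At 12 h CLA was below LA in 3 SF3 genes and above it in 1, against 9.33% and 9.46% of all genes. As deposited it was below LA in 0 and above it in 1, where 10 and 1920 of 12443 genes passed in those directions. Sf3b2 read 1275 and 1504 in CLA against 2201 and 1993 in LA (-0.60 ± 0.09, adjusted p = 0.0019), Sf3a2 read 427 and 429 against 557 and 629 (-0.46 ± 0.10, adjusted p = 0.0117), and Sf3b4 read 772 and 601 against 952 and 850 (-0.40 ± 0.12, adjusted p = 0.0425). With its 2 probe sets averaged, Sf3b4 had -0.11 (adjusted p = 0.476). In all 3 genes both CLA arrays lay below both LA arrays. Sf3b1 was higher in CLA, at 1623 and 1372 against 1163 and 1179 (0.35 ± 0.09, adjusted p = 0.022). Sf3a1 (-0.33, adjusted p = 0.0516) and Sf3b5 (-0.27, adjusted p = 0.0542) missed the threshold narrowly.

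Among the snRNP proteins, Snrpb2, which binds a stem loop of U2 RNA, read 678 and 635 on the 12 h LA arrays against 913 and 920.4 on the 8 h LA arrays (-0.48 ± 0.13, adjusted p = 0.0227). In CLA at 12 h it read 979.8 and 861, above LA by 0.48 ± 0.13 (adjusted p = 0.0257). Snrpa1, its partner on U2, pointed the other way with 610.0 and 527 in LA at 12 h against 472 and 432 at 8 h. On this brightest probe set neither the rise (0.33 ± 0.12, adjusted p = 0.063) nor the CLA minus LA difference at 12 h (-0.34 ± 0.12, adjusted p = 0.0608) passed. All 3 of its probe sets were positive in LA (0.33 to 0.42) and 2 passed, while 0 passed for CLA minus LA at 12 h. Of the proteins of the Sm ring that encircles spliceosomal RNAs, Snrpb rose in LA by 0.22 ± 0.06 (adjusted p = 0.0287) and Snrpd3 was higher in CLA than LA at 12 h by 0.39 ± 0.12 (adjusted p = 0.0402), a value of -0.02 with the mean of its probe sets. Snrpe, Snrpf and Snrpg passed in neither comparison, and nor did Snrpc of the U1 snRNP.

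**Figure D3:**
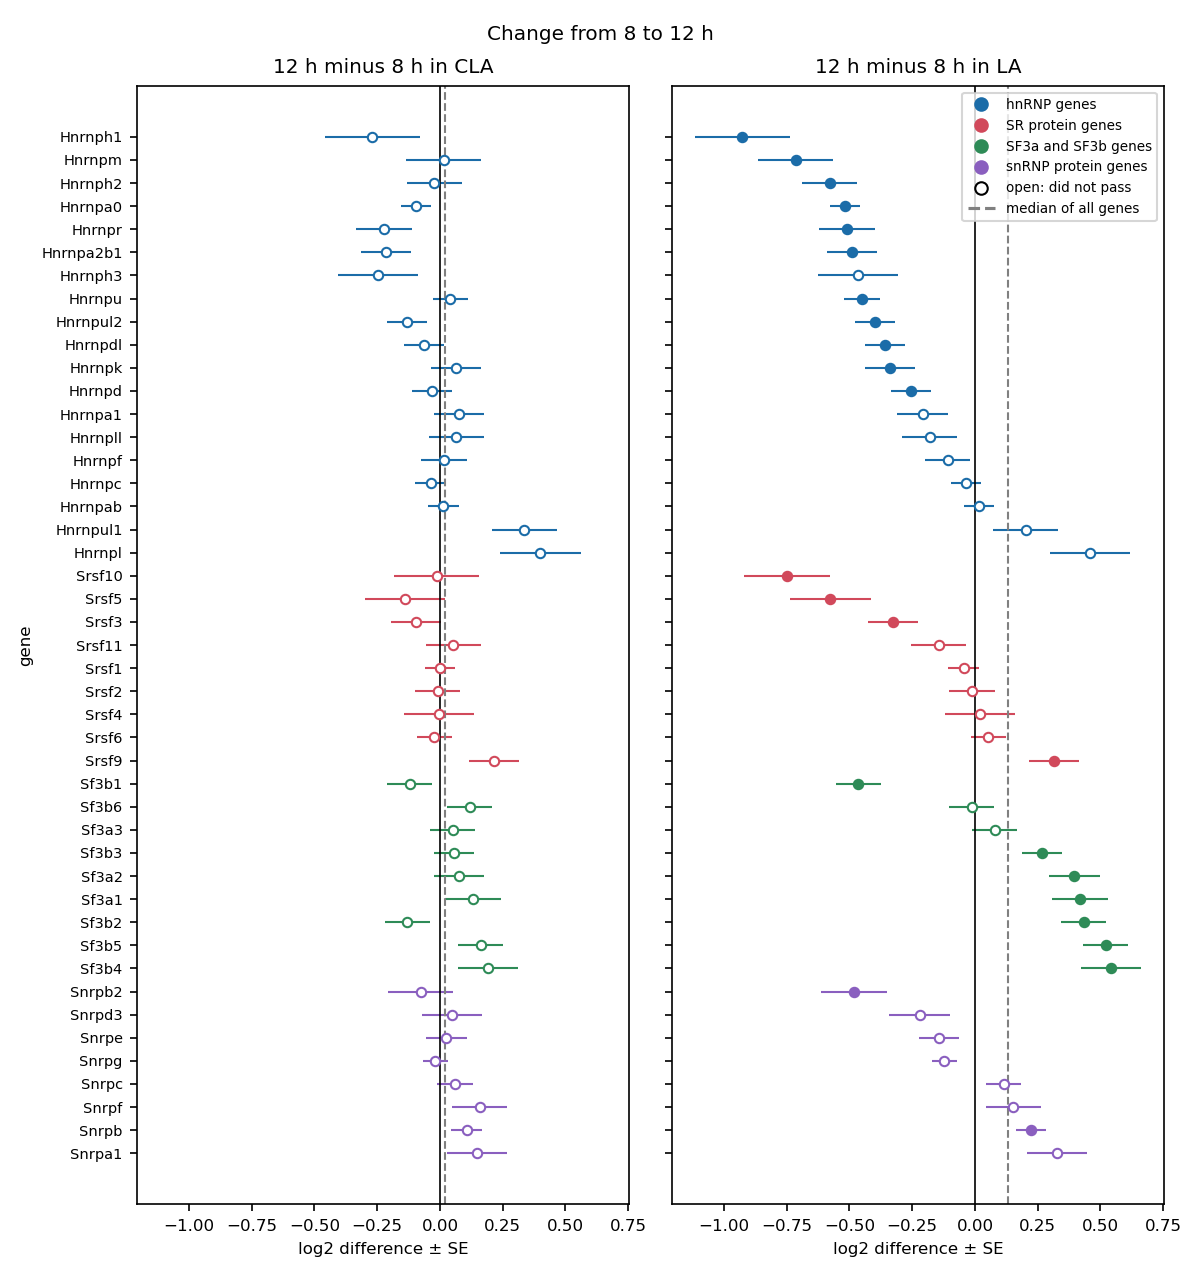
Log2 difference, 12 h minus 8 h, with its SE for 45 splicing factor genes in CLA (left) and LA (right), coloured by family, filled where the adjusted p was under 0.05, with the median of all genes dashed. In LA 16 genes fell and 8 rose, and in CLA 0 passed.

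Over all families, 15 members were higher in CLA than in LA at 12 h and 3 were lower, where 9.46% and 9.33% of all genes passed in those directions (18.8% in either). The arrays of both fatty acids were apart, with CLA higher, in 24 members and, with CLA lower, in 12, against 20.3% and 42.4% of all genes. The median difference was 0.10 for the members and -0.15 for all genes. The count of 18 fell to 10 without 1 LA array of 12 h (replicate 1), to 7 without the other (replicate 2) and to 8 without CLA replicate 1 of 12 h. Srsf10, Hnrnpm, Hnrnph2, Hnrnpu and Sf3b2 passed at 12 h with any single array left out. The 24 members that changed between 12 and 8 h in LA became 11 and 4 without replicate 1 or 2 of LA at 8 h, and 9 and 13 without replicate 1 or 2 of LA at 12 h. Hnrnpa0, Hnrnph2, Hnrnpu and Sf3b5 passed in LA with any single array left out, and the other calls were each lost without at least 1 array. No called member changed sign in these 2 comparisons when an array was left out. The counts with an array left out stand without a share of all genes, so their drop is not particular to the members.

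The sign of the SF3 median for CLA minus LA at 12 h depended on the scaling of the arrays, while its sign in LA and both signs of the hnRNP medians did not. On the intensities as deposited the median of all genes was 0.28 for CLA minus LA at 12 h and -0.19 for 12 h minus 8 h in LA, against -0.15 and 0.13 after quantile normalisation. The hnRNP median stayed positive at 12 h (0.65 as deposited, 0.20 with arrays scaled to 1 median) and negative in LA (-0.57 and -0.22). The SF3 median at 12 h was 0.11 as deposited, 0.17 below that of all genes, and in LA it was 0.10, which is 0.29 above all genes. Members called at 12 h were 20 higher and 0 lower as deposited, where 1920 and 10 of 12443 genes passed. With median scaling they were 4 higher and 3 lower, where 949 and 363 of 12419 genes passed. Those in LA were 0 higher and 17 lower as deposited (32 and 1753 of all genes) and 3 higher and 5 lower with median scaling (532 and 1064 of all genes). As deposited, few genes of any kind thus passed as lower at 12 h or as higher in LA. With the array median as a covariate, 2 members passed at 12 h and 6 in LA. No share of all genes stands beside these counts, so the drop is not a result about the members.

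**Figure D4:**
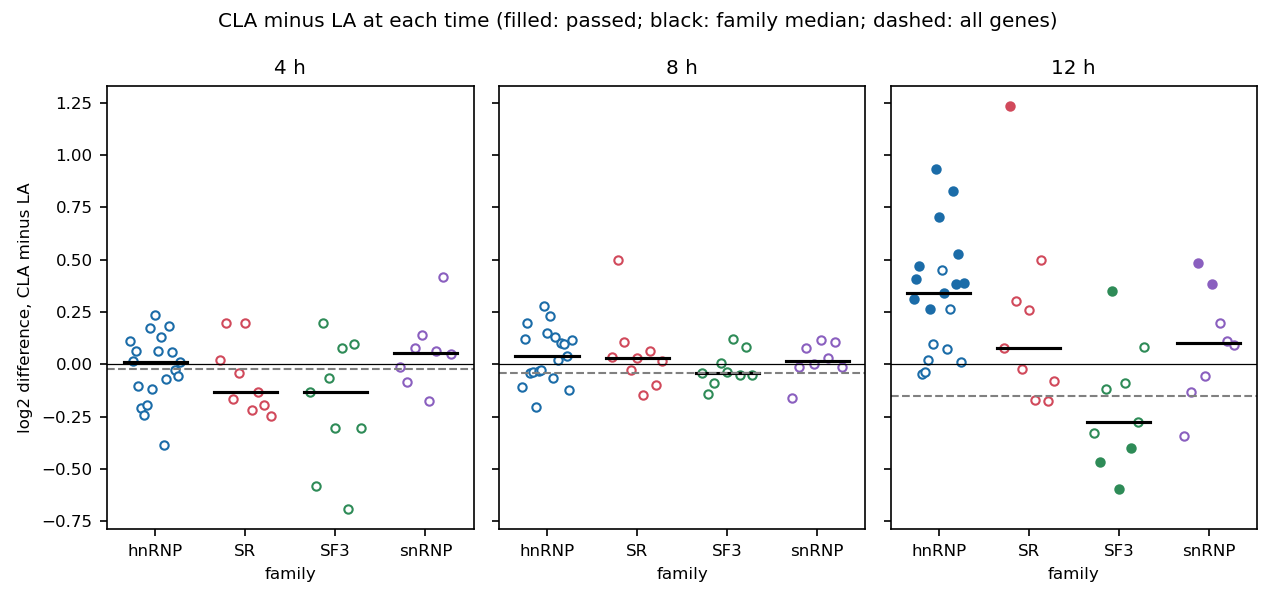
Log2 difference, CLA minus LA, of each splicing factor gene at 4, 8 and 12 h by family (points, filled where the adjusted p was under 0.05), with family medians as black bars and the median of all genes dashed. No gene passed at 4 or 8 h, and at 12 h, after quantile normalisation, 11 hnRNP genes lay above 0 and 3 SF3 genes lay below it among those that passed. As deposited these counts were 13 and 0, where 1920 of 12443 genes were higher and 10 lower.

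At 4 h, 0 members passed, against 0.298% of all genes. An unadjusted p under 0.05 in limma was found for 8 of 45 members and 1132 of all 12428 genes. The leading ones were SF3 genes: Sf3b4 read 557 and 563 in CLA against 905 in the 1 LA array (-0.69 ± 0.15, adjusted p = 0.109), Sf3a2 read 350.5 and 360.3 against 533 (-0.58 ± 0.12, adjusted p = 0.109) and Sf3b2 read 1387 and 1388 against 1712 (-0.30 ± 0.11, adjusted p = 0.402). Hnrnpc differed by -0.21 ± 0.07 and Snrpf by 0.42 ± 0.14. When the probe sets were averaged, Sf3b4 passed (-1.03, adjusted p = 0.00929) and Sf3b2 reversed to 0.26. These values rest on a single LA array, the one with the high Csf1r reading, whose spread was taken from the other groups.

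The 4 h arrays themselves stood out in some members, which were picked after their values were seen and whose change from 4 h was not tested. Hnrnph1 read 2332 and 2518 in CLA and 2633 in LA at 4 h, Srsf5 read 2399 and 2364 in CLA and 2608 in LA, and Hnrnph3 read 132 and 142 in CLA and 131 in LA, all above every later array of the gene. Snrpa1 lay below every later array, with 283 and 302 in CLA and 295 in LA.

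At 8 h, 0 members passed, as did 0% of all genes. An unadjusted p under 0.05 in limma was found for 2 of 45 members and 491 of all 12428 genes. Srsf10 read 650 and 418 in CLA against 355 and 382 in LA (0.50 ± 0.17, adjusted p = 0.986), so both CLA arrays lay above LA and most of the size came from 1 of them. Hnrnpd differed by -0.20 ± 0.08, Hnrnpa2b1 by 0.20 ± 0.10, Sf3b3 by 0.12 ± 0.08 and Hnrnpa0 by -0.11 ± 0.06. The sign of Hnrnpa2b1 turned to -0.01 without CLA replicate 1 of 8 h.

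Averaged over the 3 times, 5 members were higher in CLA and 4 were lower, against 4.14% and 3.02% of all genes (7.16% in either direction). The higher ones were Srsf10 (0.64 ± 0.11, adjusted p = 0.0164), Hnrnpm (0.37), Hnrnph2 (0.36), Hnrnpa2b1 (0.25) and Hnrnpu (0.18). The lower ones were Sf3a2 (-0.40 ± 0.06, adjusted p = 0.0164), Sf3b4 (-0.38), Sf3b2 (-0.31, and 0.02 with the mean of its probe sets) and Srsf6 (-0.16). The mean over 4 and 8 h alone gave 0, and single arrays moved the count of 9 to 3 or 2 (without CLA replicate 1 or 2 of 4 h), 0 or 3 (LA of 8 h), 20 (CLA replicate 2 of 8 h) and 4 or 1 (LA of 12 h).

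Whether the change from 8 to 12 h differed between the fatty acids was tested directly, and 1 member passed, against 1.17% of all genes (1.12% in that direction). Hnrnpu changed by 0.04 in CLA and -0.45 in LA, a difference of 0.49 ± 0.09 (adjusted p = 0.044). Hnrnpa0 (0.42 ± 0.09, adjusted p = 0.0506), Sf3b2 (-0.56 ± 0.13, adjusted p = 0.06), Hnrnph2 (0.56 ± 0.15) and Hnrnpm (0.73 ± 0.21, adjusted p = 0.131) followed, and for the other members a difference between the 2 time courses was not shown. The call of Hnrnpu was lost in 9 of the 11 cases in which 1 array was left out, with the value between 0.42 and 0.56, and the count of 1 became 14 without CLA replicate 1 of 8 h. Within CLA, the members with the smallest p over time were Hnrnpul1 (0.34 ± 0.13, adjusted p = 0.402), Hnrnpl, Srsf9 (0.22 ± 0.10), Hnrnpa2b1 (-0.22 ± 0.10) and Hnrnpr (-0.22 ± 0.11), and leaving out CLA replicate 2 of 8 h gave 1 call.

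Most members were read by several probe sets, and over time in LA these mostly moved alike. Of 132 probe sets of members above the filter, 12 rose and 31 fell between 8 and 12 h in LA, against 6.01% and 10.2% of all 26629. In 24 of 33 genes with several probe sets all had the same sign, and no gene had probe sets called both ways. For CLA minus LA all had the same sign in 24 of 33 at 12 h, 13 at 4 h and 9 at 8 h. The same share over all genes with several probe sets was not computed. For Srsf10 the 4 probe sets had LA differences of -0.75, -0.60, -0.70 and -0.69 and CLA minus LA differences at 12 h of 1.23, 1.03, 0.94 and 0.78. For Hnrnpu, 4 of 5 probe sets passed at 12 h.

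**Figure D5:**
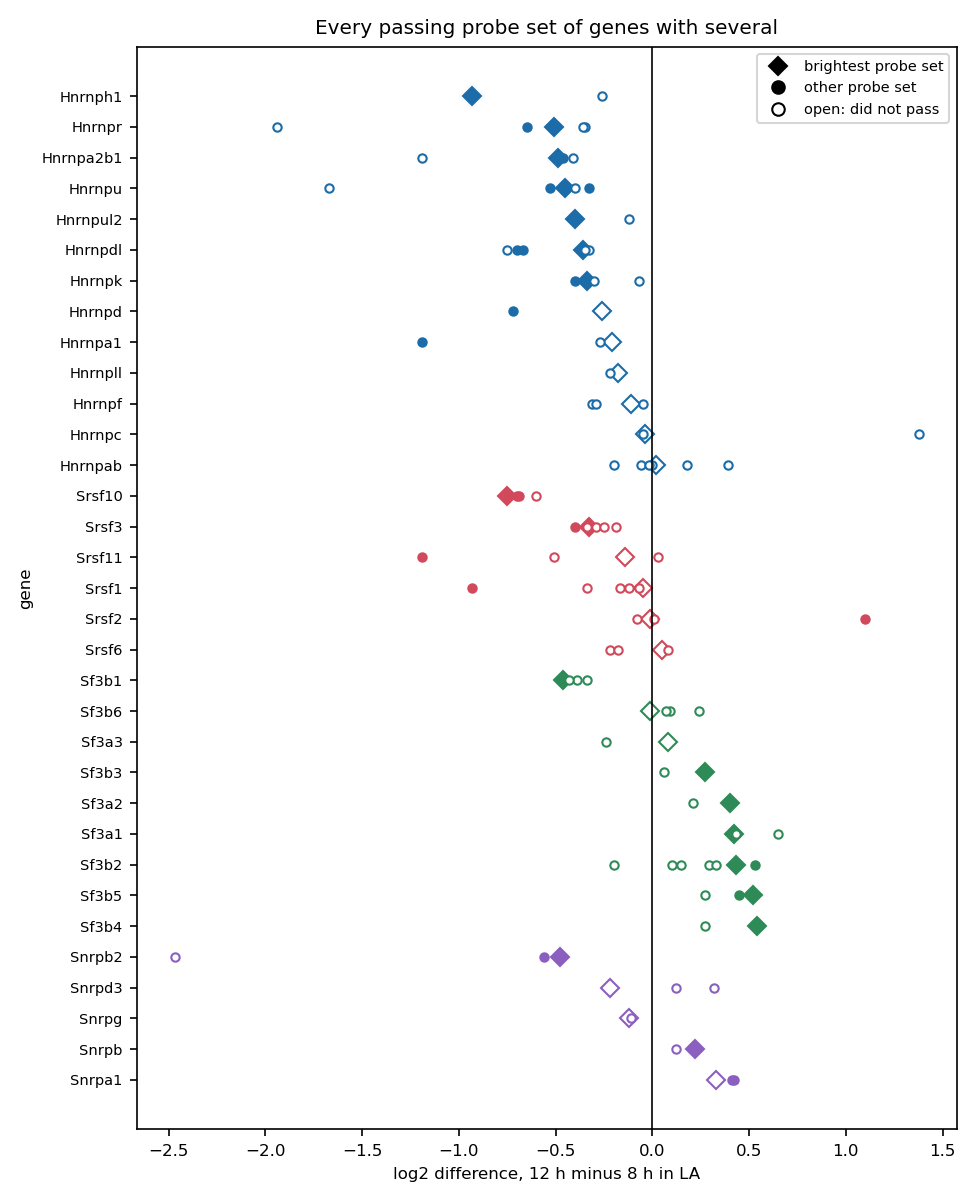
Log2 difference, 12 h minus 8 h in LA, of every probe set above the filter for 33 splicing factor genes with several (diamonds mark the brightest, filled symbols passed). In 24 genes all probe sets had the same sign. Dimmer probe sets of genes such as Hnrnpa1, Snrpa1, Srsf1, Srsf2 and Srsf11 passed where the brightest did not.

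In other genes the brightest probe set and a dimmer one differed. Srsf1, the founding SR protein, had -0.05 on its brightest probe set and -0.93 ± 0.14 (adjusted p = 0.00246) on a dimmer one in LA, and at 12 h the same pair had CLA minus LA differences of 0.08 and 0.96. Srsf11 had -0.14 on the brightest, 0.03 on another and -1.19 ± 0.29 (adjusted p = 0.0212) on a dim one. Srsf2 had -0.01 on the brightest and 1.10 ± 0.23 (adjusted p = 0.0126) on a dim one. Sf3b2 is read by 7 probe sets, 6 positive and 1 negative in LA, and its brightest carries the ending _x_at that Affymetrix gives to sets whose probes may bind other transcripts, as do those of Hnrnpa1, Hnrnpab and Hnrnpf. Its next brightest set had -0.38 ± 0.10 for CLA minus LA at 12 h (adjusted p = 0.0308), against -0.60 on the brightest. With the probe sets of each gene averaged, the SF3 calls were mostly lost. In LA Sf3b4 still rose (0.40, adjusted p = 0.02), while Sf3a1 (0.50, adjusted p = 0.0574), Sf3a2 (0.30, adjusted p = 0.121), Sf3b2 (0.23, adjusted p = 0.154), Sf3b3 (0.16, adjusted p = 0.16), Sf3b5 (0.42, adjusted p = 0.186) and Sf3b1 (-0.40, adjusted p = 0.0738) did not pass. At 12 h none of Sf3a2 (-0.33, adjusted p = 0.103), Sf3b1 (0.31, adjusted p = 0.161), Sf3b2 (-0.21, adjusted p = 0.206) and Sf3b4 passed. The 11 hnRNP genes that fell in LA all passed with averaged probe sets, with Hnrnph1 at -0.59 (adjusted p = 0.0466), and at 12 h Hnrnpa1 (adjusted p = 0.0612) and Hnrnpr (adjusted p = 0.0509) were the hnRNP calls lost. Srsf3 (adjusted p = 0.0515), Srsf9 (adjusted p = 0.0532) and Snrpb (adjusted p = 0.0996) were lost in LA. Which transcript forms the dimmer probe sets read was not tested.

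Beyond the 4 families, 105 of 113 other splicing genes in 9 lists were tested. In LA, 4 were higher and 20 were lower at 12 h than at 8 h, against 11% and 11.4% of all genes. At 12 h 17 were higher and 11 lower in CLA than LA, against 9.46% and 9.33% of all genes. Of 12 SR-like and SR-related proteins 0 rose and 6 fell in LA (median -0.58), with Rbm25 at -1.07, Scaf11 at -0.60 and Tra2b at -0.57, and 6 were higher and 0 lower in CLA at 12 h. Of 13 other alternative splicing regulators 0 rose and 6 fell, with Mbnl3 at -1.66, Qk at -0.69 and Mbnl1 at -0.86, and at 12 h 5 were higher and 1 lower in CLA. Among 14 hnRNP-like proteins 1 rose and 3 fell, among them Ptbp3 at -1.23 ± 0.12 (adjusted p = 0.000218), and at 12 h 2 were higher and 4 lower in CLA.

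The counts in LA that follow stand against 11% of all genes higher and 11.4% lower. Among 13 U1 and U2 proteins outside the 4 families 0 rose and 1 fell in LA (U2surp, -0.91). Among 15 tri-snRNP and B complex proteins 0 rose and 1 fell (Prpf4b, a kinase of the B complex, -0.77). In the list of 13 Prp19 complex and later-step proteins 3 rose, among them Xab2 at 0.38, and 2 fell, among them Crnkl1 at -0.62. At 12 h 1 of them was higher and 3 were lower in CLA, against 9.46% and 9.33% of all genes. Of 6 SR protein kinases 0 rose and 1 fell (Clk4, -0.92). The 9 Lsm proteins and the 10 genes listed for the SMN complex and Sm ring assembly had 0 calls in LA and at 12 h. At 4 and 8 h, 0 of the 105 genes passed, against 0.298% and 0% of all genes. In the test of the time courses Mbnl3 (1.80 ± 0.32, adjusted p = 0.037) and Ptbp3 (1.08 ± 0.17, adjusted p = 0.0322) passed, against 1.17% of all genes.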

How the data were processed

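Total RNA was turned into biotinylated cRNA and hybridised to arrays of 1 colour, per the labels' protocols. The authors deposited 1 intensity per probe set and array, on a linear scale and background-subtracted, as values below 0 show. The sources used here name no software, settings or scaling between arrays. The authors' ratio tables were left out, since no header says which fatty acid is on top.

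Intensities of 45101 probe sets were quantile normalised in limma 3.58.1 (R 4.3.3), negative values became 0, and log2(value + 1.84) was computed, 1.84 being the 25th percentile. This offset understates changes of dim genes and hardly touches these bright members. After leaving out 64 controls, 26629 probe sets passed a filter on the mean at 7.81, the 40th percentile. Symbols came from the platform annotation, in which 34945 probe sets had 1 symbol, 932 several and 9160 none. Of those with 1 symbol 34754 matched a current mouse gene by Entrez ID and no symbol changed. Another 16 probe sets naming a member among several symbols were not used. The brightest probe set stood for each of 12428 genes.

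limma fitted 1 mean for each of 6 groups over all 11 arrays with an intensity trend (5 residual and 6.1 prior degrees of freedom). Benjamini-Hochberg adjustment ran over all 12428 genes, or all 26629 probe sets, at 0.05. The contrasts were CLA minus LA at 4, 8 and 12 h, their mean, 12 h minus 8 h in each fatty acid, and the difference between these time courses. Errors of log2 differences are SEs with 95% intervals. The fit was tested on simulated data. Samples sharing a replicate number did not deviate together (correlations of -0.042 to 0.074), so the numbers were not taken as pairs. Named members were those called, at most 10 each way by size, with the rest of the called ones added in the text, or the 5 of smallest p when under 5 passed, plus members whose probe sets differ in sign. Members and lists were chosen with earlier results of these data known. The alternatives were 3 other scalings, a larger offset, no filter or a stricter one, the mean over all passing probe sets of a gene, no trend, a replicate block, the array median as covariate, fewer arrays in the fit, and each array left out.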

Additional observations from a re-analysis of the deposited data

Results flagged for a closer look

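The change of Hnrnpu between 8 and 12 h differed between the fatty acids in a direct test, by 0.49 on the log2 scale (adjusted p = 0.044 in limma, adjusted over all genes). Hnrnpu was higher in CLA than LA on both pairs of 12 h arrays and overlapped at 8 h. At the level of single probe sets 0 of 132 member probe sets passed this test, and 0% of all 26629 did.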

How the results depend on the processing

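Of the values of named members recomputed under the alternatives, 1204 kept sign and side of the threshold, 380 no longer passed, 12 newly passed and 7 reversed. The count of 18 called members for CLA minus LA at 12 h was 7 with arrays scaled to 1 median, 10 without the filter, 7 without the intensity trend and 2 with the array median as covariate, and 7 to 25 with an array left out. The count of 24 for 12 h minus 8 h in LA was 8, 11, 10 and 6 under those same alternatives, and 4 to 27 with an array left out. The count of 9 for the mean over 3 times was 0 as deposited, 1 without the filter, 3 with probe sets averaged per gene, 0 without the trend and 0 without 12 h, and 0 to 20 with an array left out. The count of 1 in the test of the time courses was 0 with median scaling, as deposited, without the filter, with the mean of probe sets, without the trend, with the covariate and with only the compared arrays, 2 with cyclic loess and 3 with a filter at the 60th percentile, and 0 to 14 with an array left out. At 4 h the mean of probe sets gave 1 call, and leaving out arrays gave 0 to 1 there and over time in CLA, and 0 at 8 h. The values that reversed were those of Sf3b2 at 4 h (0.26) and over 3 times (0.02), Sf3b3 at 8 h (-0.02) and Snrpd3 at 12 h (-0.02) with the mean of probe sets, Hnrnpa2b1 (-0.01) and Sf3b3 (-0.03) at 8 h with median scaling, and Hnrnpa2b1 at 8 h (-0.01 to 0.41 with an array left out, -0.01 being without CLA replicate 1). The causes of these shifts were not tested. Counts in this section stand without the share of all genes under each alternative, so a drop is not a result about the members. With a replicate block, the counts were 0 at 4 h, 0 at 8 h, 19 at 12 h, 8 over 3 times, 24 in LA, 0 in CLA and 1 in the test of the time courses, and numbering the block within each time gave 21 at 12 h and 7 over 3 times, so no count moved by over 1.5 times. Precision is limited by the 1 or 2 arrays per group. The dimmest member, Hnrnph3, read as low as 50.6, against a background of 8.89.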
